A study of Mus musculus with 8 samples.

Results

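The 51 genes of mouse matrix proteases and their TIMP inhibitors were taken from a table of 50600 gene rows by symbol alone: 23 matrix metalloproteinases (Mmp followed by a number), 19 Adamts genes, 5 Adamts-like (Adamtsl) genes and Timp1 to Timp4. The libraries were poly(A) RNA of cultured mouse malignant peripheral nerve sheath tumor (MPNST) cells. The NF1-MET line came from a tumor driven by Met amplification with Nf1 loss and carries a spontaneous Cdkn2a deletion, and NF1-MET;sgP53 was derived from it by lentiviral CRISPR-Cas9 against Trp53 and puromycin selection, with no cloning step described. The methods also describe NF1-MET cells that received the empty vector, and the count columns of the NF1-MET libraries are named with the prefix SEV, but the labels do not say whether the sequenced NF1-MET cells were those. All 4 groups therefore share the Nf1, Met and Cdkn2a alterations, and since each genotype is 1 cell line, an effect of Trp53 loss and a difference between the lines cannot be told apart. Each line received vehicle (DMSO) or 100 nM capmatinib, a MET kinase inhibitor, for 24 h, with 2 duplicate cultures in each of the 4 groups. The p-values measure the spread between these duplicates, and in bulk RNA fewer cells of a type and less RNA per cell cannot be told apart. The study asked how Trp53 loss alters the transcriptional response to MET inhibition.

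Matrix metalloproteinases are zinc endopeptidases that are made as inactive zymogens and cut collagens, laminins, fibronectin and many cell-surface proteins. ADAMTS proteases are secreted, carry thrombospondin repeats, and cut proteoglycans or trim procollagens, while the ADAMTS-like proteins keep the thrombospondin repeats and lack the protease domain. TIMPs bind the active site of metalloproteinases in a tight complex, and TIMP2 also takes part in the activation of pro-MMP2 by MMP14 at the cell surface. In nerve sheath tumors these enzymes and inhibitors are studied for their part in remodelling a collagen-rich stroma.

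The libraries held 30116810 to 42781371 counts, and 14497 genes passed a filter of 10 counts or more in any 2 libraries. Of the 51 members, 30 passed that filter (12 Mmp, 11 Adamts, 4 Adamtsl and 3 Timp genes), and the members took 0.35% to 0.566% of all counts in a library. Levels are given as CPM, the read count relative to the scaled total of its library, with totals scaled by trimmed means of M-values (TMM). Gm42418, a gene that overlaps ribosomal RNA, took 1.11% to 13.1% of the counts, with the lowest share in NF1-MET;sgP53 capmatinib replicate 2. The knocked-out gene Trp53 stood at 182 and 193 CPM in NF1-MET vehicle and at 97.5 and 100 CPM in NF1-MET;sgP53 vehicle, a log2 fold change of -0.945 ± 0.033 (SE) by edgeR's quasi-likelihood test; in capmatinib the values were 126 and 128 against 68 and 68.8 CPM. Of the 10 Schwann-lineage markers, Sox10 (0 to 7 counts), Ngfr (0 to 5), Cdh19 (0 to 5) and Foxd3 (0 to 1) were at or near 0, and Nes and Sox9 gave most of the list's summed level of 477 to 526 CPM. Sox9, a transcription factor of neural crest cells, fell with capmatinib from means of 65.0 to 16.2 CPM in NF1-MET and of 50.4 to 18.4 CPM in NF1-MET;sgP53 (log2 fold changes -2.02 and -1.45), while Nes stood at group means of 427 to 463 CPM. The 4 endothelial markers summed to at most 0.358 CPM, the 4 epithelial markers to at most 0.727 CPM and the 5 leukocyte markers to between 1.77 and 2.12 CPM, with Adgre1 and Itgam at 0 in every library. Single genes moved within these low sums: Krt8 had 4 to 23 counts in vehicle and 0 to 1 in capmatinib, Csf1r rose (7 to 17 counts in vehicle, 26 to 30 in capmatinib) and Cd68 fell (44 to 73 counts against 21 to 41) in both lines. The 5 fibroblast markers summed to between 2831 and 3742 CPM in vehicle and between 15520 and 15850 CPM in capmatinib, a difference made by Col1a1. Of the 4 tested, Col1a1 alone rose in each line and 2 fell: Pdgfra in both (log2 fold changes -0.38 and -0.32), Dcn in NF1-MET (-0.86) and Dpt, at 5 to 19 counts, in NF1-MET;sgP53 (-1.26). Lum was at 0 to 1 counts. Col1a1 is also among the matrix substrates described here, and the part of these lists in the results below was not tested.

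Most tested members rose with capmatinib, in both lines. In NF1-MET cells 22 of the 30 were higher and 6 lower at an adjusted p under 0.05, beside 35.5% of all tested genes higher and 34.7% lower. The NF1-MET;sgP53 cells gave 22 higher and 6 lower members again, beside 34.2% and 33.4% of all genes. These comparisons share no library with each other, but each shares libraries with the comparisons between lines. The median log2 fold change of the members was 1.13 and 1.07, against 0.002 and 0.005 for all genes. By name, 21 members were higher and 6 lower in both lines (2 of the 6, Mmp10 and Adamts8, passed the count filter through their vehicle libraries alone, so that a fall was the only call they could give), 2 were called in 1 line alone (Adamtsl5 and Mmp15) and Mmp9 in neither. The counts of all genes depended on scaling: with library totals in place of TMM the median gene shifted by -0.184 and -0.118, giving splits of 3508 higher to 6381 lower genes in the parental line and 3260 to 4933 after Trp53 targeting. Without Gm42418 in those totals the splits were 4280 to 6040 and 4038 to 6018, against 5140 to 5029 and 4963 to 4841 with TMM. The members' median stayed at 0.949 and 0.947 with library totals.

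**Figure D1:**
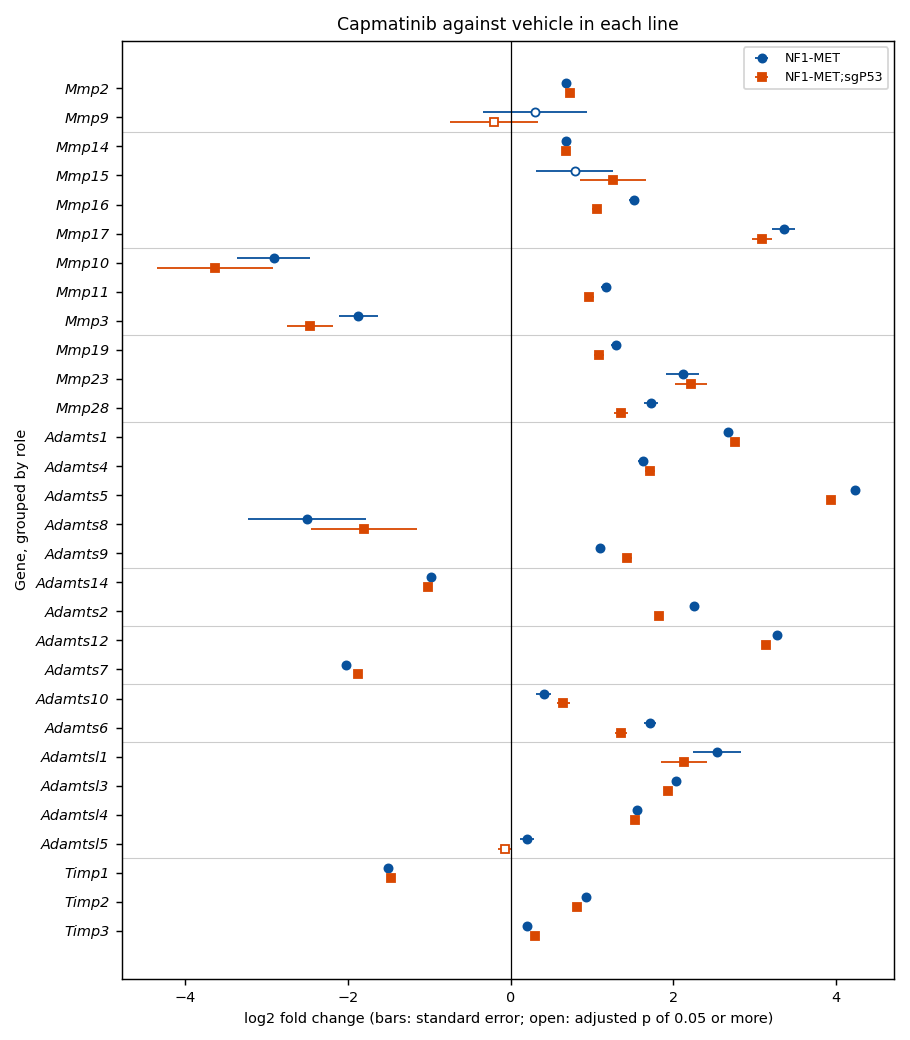
Log2 fold change of the 30 tested members, capmatinib against vehicle, in NF1-MET (circles) and NF1-MET;sgP53 cells (squares), with genes grouped by role and bars for the standard error; open symbols did not pass an adjusted p of 0.05. Adamts5 lies farthest to the right at 4.24 and 3.94, and Mmp10 farthest to the left at -2.91 and -3.64.

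The TIMP genes did not move together. Timp1, an inducible inhibitor of most secreted MMPs, stood at 611 and 582 CPM in NF1-MET vehicle, 212 and 211 CPM in NF1-MET capmatinib, 593 and 568 CPM in NF1-MET;sgP53 vehicle, with 210 and 209 CPM in NF1-MET;sgP53 capmatinib. All 4 capmatinib libraries lay far below all 4 vehicle libraries. Timp1 fell 2.85-fold in NF1-MET (log2 fold change -1.51 ± 0.025 SE, edgeR adjusted p = 3.74e-31) and 2.77-fold in NF1-MET;sgP53 (-1.47 ± 0.030, adjusted p = 6.4e-21). Timp2, which also helps to activate pro-MMP2, stood at 702 and 694, 1350 and 1342, 764 and 748, and 1332 and 1331 CPM in the same order of groups. Its capmatinib libraries lay above its vehicle libraries in both lines, 1.91-fold in NF1-MET and 1.76-fold in NF1-MET;sgP53 (log2 fold changes 0.93 ± 0.019 and 0.82 ± 0.023 SE, adjusted p = 1.7e-28 and 1.88e-18). Timp3, the TIMP that binds the extracellular matrix, stood at 867 and 861, 1009 and 1006, 830 and 827, and 1042 and 998 CPM. It rose 1.15-fold and 1.23-fold (adjusted p = 3.87e-11 and 3.85e-10), but with library totals the values were 0.020 (adjusted p = 0.767) and 0.18 (adjusted p = 0.154) on the log2 scale, so that neither call held under that scaling. Of the exonic bases of Timp3, 21.3% overlap exons of Syn3 on the opposite strand, and the strand setting of the counting is not stated. Timp4 had 0 counts in 7 libraries and 2 counts in NF1-MET;sgP53 capmatinib replicate 2, and a count of 0 allows a level of up to 0.0701 to 0.0996 CPM of the library total.

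In each library the share of Timp counts that came from Timp1 was 26.5% to 28% in vehicle and 8.12% to 8.26% in capmatinib, while Timp2 went from 32.2% to 34.9% of the Timp counts in vehicle to 51.6% to 52.5% in capmatinib. Timp3 held 38% to 40.3% of them in all 8 libraries. The ratio of Timp2 to Timp1 counts was 1.15 to 1.32 in vehicle and 6.35 to 6.37 in capmatinib. Per kb of the longest annotated transcript, Timp1 had the highest mean level of all members in NF1-MET vehicle (675 CPM per kb), ahead of Timp2 (188) and Timp3 (183), and Timp2 had it in NF1-MET capmatinib (363, with Timp1 at 240 and Timp3 at 213 CPM per kb). With the median transcript length instead, Timp1 still led in NF1-MET vehicle at 695 CPM per kb, while Mmp14 at 694 CPM per kb led in NF1-MET capmatinib, so the order of levels between genes rested on the length used.

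**Figure D2:**
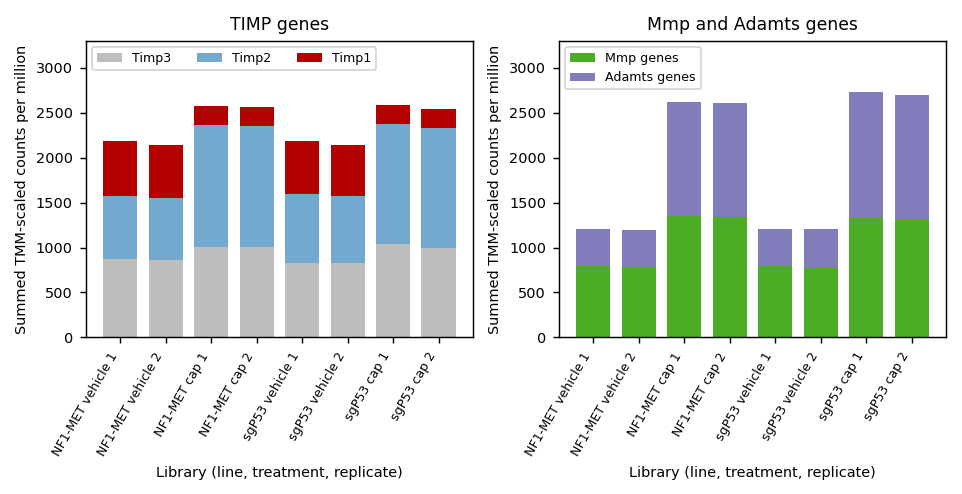
Summed TMM-scaled CPM of the Timp genes (left) and of the Mmp and Adamts genes (right) in each of the 8 libraries, where sgP53 stands for NF1-MET;sgP53 and cap for capmatinib. The Timp1 part of the left bars shrinks to 8.12% to 8.26% in capmatinib, and the right bars are higher in the 4 capmatinib libraries.

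Summed over the family, Mmp genes reached 776.5 to 799.9 CPM in the vehicle libraries and 1310 to 1353 CPM in the capmatinib libraries, and Adamts genes 403.7 to 427 and 1262 to 1402 CPM. The Timp genes summed to 2136 to 2188 CPM in vehicle and 2539 to 2584 CPM in capmatinib. The ratio of Mmp and Adamts counts to Timp counts was therefore 0.552 to 0.562 in the 4 vehicle libraries and 1.02 to 1.06 in the 4 capmatinib libraries, with no overlap. These sums are of read counts, to which longer transcripts give more reads, and say nothing of protein or activity.

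Among the gelatinases, which cut denatured collagen and basement membrane collagen IV, Mmp2 carried nearly all counts. Mmp2 stood at 402 and 398 CPM in NF1-MET vehicle, 657 and 639 CPM in NF1-MET capmatinib, 372 and 366 CPM in NF1-MET;sgP53 vehicle, with 618 and 607 CPM in NF1-MET;sgP53 capmatinib. The capmatinib libraries were apart from and above the vehicle libraries, by 1.60-fold (log2 fold change 0.68 ± 0.022 SE, adjusted p = 7.43e-23) and 1.66-fold (0.73 ± 0.027, adjusted p = 3.25e-16). Mmp9, the other gelatinase, had 3 to 13 counts per library, just inside the filter with 2 libraries at 10 or more, and its values of 0.30 ± 0.64 and -0.21 ± 0.54 (SE) did not pass the test. The sign of both turned when single libraries were left out, to -0.25 without NF1-MET vehicle replicate 1, -0.14 without NF1-MET capmatinib replicate 1 and 0.13 without NF1-MET;sgP53 vehicle replicate 2. Mmp24, with 1 to 10 counts and 1 library at 10, lay just outside the filter.

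Of the membrane-type MMPs, which stay anchored to the cell surface, 4 of the 6 were tested. Mmp14, the membrane collagenase that activates pro-MMP2, stood at 335 and 331, 540 and 541, 353 and 342, and 562 and 554 CPM in NF1-MET vehicle, NF1-MET capmatinib, NF1-MET;sgP53 vehicle and NF1-MET;sgP53 capmatinib. Its rise of 1.60-fold in NF1-MET and 1.61-fold in NF1-MET;sgP53 (adjusted p = 6.04e-23 and 2.08e-15) was close in size to that of Mmp2, and Mmp2 and Mmp14 together made up 91.2% to 92.7% of the Mmp counts in vehicle and 88.3% to 88.8% in capmatinib. Mmp16 stood at 13.7 and 13.2, 39.0 and 38.6, 19.6 and 20.1, and 41.6 and 41.01 CPM, a rise of 2.85-fold in NF1-MET and 2.08-fold in NF1-MET;sgP53 (adjusted p = 5.43e-21 and 4.03e-14). The vehicle groups of the lines differed for Mmp16 and the capmatinib groups nearly met. Mmp17, which is held by a lipid anchor, rose from 1.05 and 1.00 to 10.7 and 10.6 CPM in NF1-MET and from 1.43 and 1.40 to 11.7 and 12.3 CPM in NF1-MET;sgP53. These are rises of 10.2-fold and 8.48-fold (log2 fold changes 3.35 ± 0.14 and 3.09 ± 0.12 SE, adjusted p = 8.19e-20 and 1.1e-15), the largest of any tested Mmp gene in either line. Mmp15, at 8 to 28 counts, was called in NF1-MET;sgP53 (log2 fold change 1.26 ± 0.41, adjusted p = 0.0091) and not in NF1-MET (0.78 ± 0.48, adjusted p = 0.143); the difference between the lines did not pass its own test (adjusted p = 0.734), and the call was lost without NF1-MET;sgP53 vehicle replicate 2 (0.88, adjusted p = 0.119) and under the DESeq2 Wald test (1.25, adjusted p = 0.0731).

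The genes grouped by name as stromelysins, Mmp3, Mmp10 and Mmp11, split in direction. MMP3 and MMP10 are broad-range proteases that cut proteoglycans, fibronectin and laminin and can activate other pro-MMPs. Mmp11, a stromelysin activated inside the cell, stood at 20 and 19.3, 45.8 and 43.5, 20.02 and 21.4, and 40.2 and 40.8 CPM, and rose 2.24-fold and 1.96-fold (edgeR adjusted p = 4.25e-19 and 2.9e-13). Mmp3 and Mmp10, stromelysin 1 and stromelysin 2, are low here and were picked out after their values were seen. Mmp3 had 100 and 92 counts in NF1-MET vehicle, 17 and 29 in NF1-MET capmatinib, 106 and 102 in NF1-MET;sgP53 vehicle and 12 and 23 in NF1-MET;sgP53 capmatinib. It fell 3.66-fold in NF1-MET and 5.52-fold in NF1-MET;sgP53 (log2 fold changes -1.87 ± 0.24 and -2.46 ± 0.28 SE, adjusted p = 3.74e-08 and 7.94e-08). Mmp10 had 39 and 40, 4 and 5, 21 and 22, and 0 and 3 counts in the same order. Every capmatinib library lay below every vehicle library for both genes, and Mmp10, which reached 10 counts in vehicle libraries alone, was lower in both lines (adjusted p = 7.11e-07 and 0.000102). For NF1-MET;sgP53, where 43 vehicle counts stood against 3 capmatinib counts, the scaled ratio was 13.3, with an exact 95% interval of 4.26 to 67 that covers counting error only. The fitted value there rests on single libraries: it was -3.64 with all 4, -2.71 (adjusted p = 0.00283) without NF1-MET;sgP53 capmatinib replicate 1, which had 0 counts, and -7.40 without replicate 2, where the remaining 0 leaves a value that is no bound.

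Mmp3 and Mmp10 belong to a cluster of 10 Mmp genes within 427 kb of chromosome 9, and they were the only 2 of the 10 past the filter. The other cluster genes, among them the collagenases Mmp13 (3 to 6 counts), Mmp1a (0 to 3), Mmp1b (0 to 2) and Mmp8 (0 to 2), had at most 6 counts in any library, and Mmp7, Mmp12 and Mmp20 had 0 in all 8. The 250 bases before the RefSeq start are shown for Mmp3, Mmp10 and Mmp13, a gene of the same cluster below the filter. These were picked because all 3 hold a match to the AP-1 motif TGANTCA, printed in capitals. The sequence of Timp1, the member of highest level among those that fell, was picked as a contrast without one. All are 5′ to 3′ on the plus strand of GRCm38.p6 (mm10), at chr9:7445572-7445821, chr9:7502092-7502341, chr9:7272264-7272513 and chrX:20869916-20870165.
Mmp3: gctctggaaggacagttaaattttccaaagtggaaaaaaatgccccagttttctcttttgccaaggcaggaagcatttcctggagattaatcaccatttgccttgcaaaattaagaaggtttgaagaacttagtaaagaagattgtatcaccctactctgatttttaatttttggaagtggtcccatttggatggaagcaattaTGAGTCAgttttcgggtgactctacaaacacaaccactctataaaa
Mmp10: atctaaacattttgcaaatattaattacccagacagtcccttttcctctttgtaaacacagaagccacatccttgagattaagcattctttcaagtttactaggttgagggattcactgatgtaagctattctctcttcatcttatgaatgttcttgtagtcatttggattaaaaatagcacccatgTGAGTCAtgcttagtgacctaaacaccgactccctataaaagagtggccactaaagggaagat
Mmp13: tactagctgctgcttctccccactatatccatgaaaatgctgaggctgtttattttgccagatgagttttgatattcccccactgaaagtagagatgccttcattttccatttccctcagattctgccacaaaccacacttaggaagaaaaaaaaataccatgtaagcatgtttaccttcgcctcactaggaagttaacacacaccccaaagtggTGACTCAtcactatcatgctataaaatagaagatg
Timp1: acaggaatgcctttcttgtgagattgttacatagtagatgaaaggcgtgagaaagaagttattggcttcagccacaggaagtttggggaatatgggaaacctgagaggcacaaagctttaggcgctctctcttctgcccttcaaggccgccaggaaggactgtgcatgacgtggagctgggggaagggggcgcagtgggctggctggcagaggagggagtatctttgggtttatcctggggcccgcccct

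AP-1, a dimer of Fos and Jun proteins, is a textbook regulator of stromelysin and collagenase genes. The match began 46 bases before the start of Mmp3, 63 bases before that of Mmp10 and 35 bases before that of Mmp13. Searched on both strands, TGANTCA was found in the windows of 8 of the 10 cluster genes and in none of the 26 other members with a window, beside 6.75% of all 32851 windows of the same length. Of the 8 cluster genes with a match, 6 were below the filter. Of the 18 tested members with a window, 7 held an ETS core (AGGAAG or CGGAAG, in 39.2% of all windows) and 2 held the RUNX letters TGTGGT (14% of all windows). The Timp1 window held 2 ETS matches, and that of Mmp3 held 1, 183 bases before the start. A match is a description of the letters and not a bound site.

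**Figure D3:**
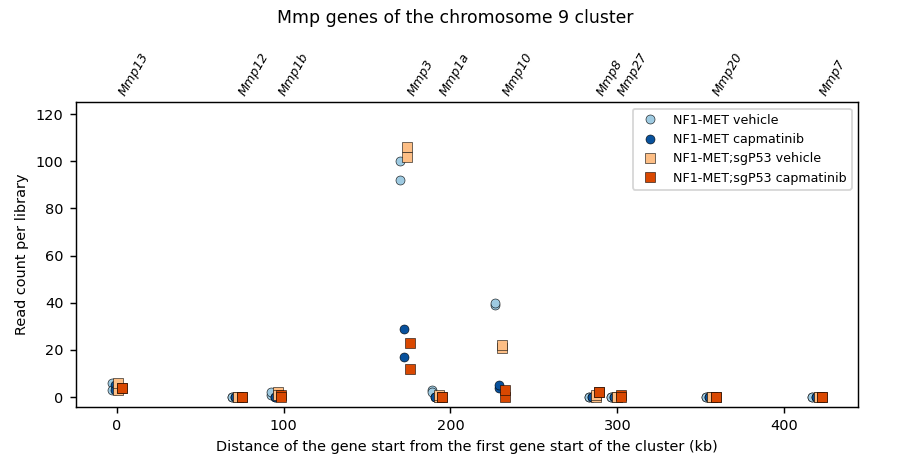
Read counts per library of the 10 Mmp genes of the chromosome 9 cluster, placed by the distance in kb of each gene start from that of Mmp13, with points for single libraries in 4 groups. Mmp3 and Mmp10 carry the counts, at 92 to 106 and 21 to 40 in vehicle and 12 to 29 and 0 to 5 in capmatinib.

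The other tested Mmp genes all rose. Mmp19, a basement membrane protease, stood at 15.9 and 14.1, 35.7 and 38.4, 15.9 and 14.8, and 32.3 and 32.8 CPM, and Mmp28, or epilysin, at 6.45 and 5.37, 20.1 and 19.5, 6.98 and 6.16, and 17.0 and 16.5 CPM. Mmp19 rose 2.46-fold and 2.12-fold and Mmp28 rose 3.31-fold and 2.56-fold, with adjusted p of 3.99e-13 or lower for Mmp19 and 3.96e-12 or lower for Mmp28. Exons of opposite-strand genes cover 22.3% of the exonic bases of Mmp19 (Tmem198b) and 12% of those of Mmp28 (1700020L24Rik). Mmp23, a membrane protein with an amino-terminal anchor, rose from 0.802 to 0.960 CPM in vehicle to 3.65 to 4.62 CPM in capmatinib over both lines (log2 fold changes 2.11 ± 0.20 and 2.21 ± 0.20 SE).

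**Figure D4:**
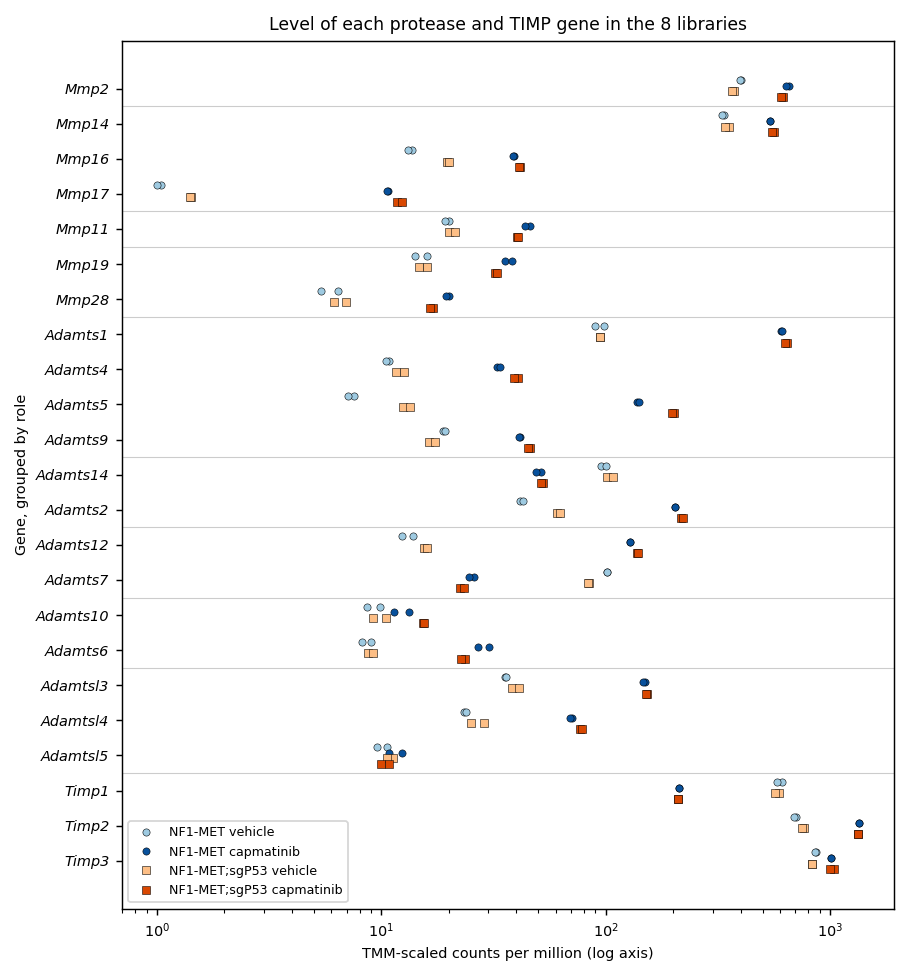
TMM-scaled CPM, on a log axis, of the members that reached a group mean of 5 CPM, with a point for each of the 8 libraries and genes grouped by role. Dark capmatinib points sit to the right of the pale vehicle points for most genes and to the left for Timp1, Adamts7 and Adamts14.

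The ADAMTS hyalectanases, which cut aggrecan, versican and brevican, held the largest rise of all members. Adamts5, an aggrecanase of cartilage, stood at 7.55 and 7.10 CPM in NF1-MET vehicle, 138 and 141 CPM in NF1-MET capmatinib, 12.5 and 13.4 CPM in NF1-MET;sgP53 vehicle, with 202 and 197 CPM in NF1-MET;sgP53 capmatinib. The 4 groups did not overlap. The rise was 18.9-fold in NF1-MET (log2 fold change 4.24 ± 0.048 SE, adjusted p = 9.78e-36) and 15.3-fold in NF1-MET;sgP53 (3.94 ± 0.044, adjusted p = 1.53e-25). Adamts5 lies at chr16:85856173-85901828 (mm10), and Adamts1, its neighbor 53.1 kb away at chr16:85793827-85803113, stood at 98.5 and 89.8, 603 and 611, 94.6 and 94.1, and 646 and 628 CPM. Adamts1 rose 6.38-fold and 6.75-fold (log2 fold changes 2.67 ± 0.030 and 2.76 ± 0.031 SE, adjusted p = 7.41e-36 and 1.64e-25) and went from 22% to 24.4% of all Adamts counts in vehicle to 45.4% to 47.8% in capmatinib. Per kb it was the highest Adamts gene in NF1-MET capmatinib at 124 CPM per kb, beside 12.9 for Adamts5, whose transcript is longer.

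The other aggrecanase Adamts4 stood at 10.8 and 10.5, 32.7 and 33.8, 12.6 and 11.6, and 40.6 and 38.9 CPM, and Adamts9, a protease of versican with a place in secretion from the endoplasmic reticulum, at 18.9 and 19.3, 41.7 and 41.3, 16.4 and 17.3, and 46.1 and 45.1 CPM. Adamts4 rose 3.09-fold and 3.29-fold and Adamts9 rose 2.15-fold and 2.70-fold, and capmatinib and vehicle libraries were apart in both lines. Adamts8 was lower in both lines but rests on few reads and reached 10 counts in vehicle libraries alone, with 11 to 16 counts in vehicle and 0 to 6 in capmatinib (adjusted p = 0.00283 for NF1-MET and 0.0184 for NF1-MET;sgP53). Its call in NF1-MET;sgP53 was lost without vehicle replicate 2 of that line (log2 fold change -1.67, adjusted p = 0.0552) and without its capmatinib replicate 2 (-1.03, adjusted p = 0.202), under the DESeq2 Wald test (-1.83, adjusted p = 0.116) and with no count filter (-1.80, adjusted p = 0.0501), and was -3.52 without capmatinib replicate 1. In NF1-MET the value of Adamts8 was -2.51, against -1.75 without capmatinib replicate 1, which had 0 counts, and -6.64 without replicate 2, again a value that is no bound. Opposite-strand exons cover 10.6% of the exonic bases of Adamts8 (Gm29724) and 9.18% of those of Adamts9 (A730049H05Rik).

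Within the procollagen and COMP groups, unlike most hyalectanases, the tested genes moved in opposite directions. Of the procollagen N-propeptidases, which remove the amino-terminal propeptide of fibrillar procollagens, Adamts2 stood at 41.5 and 43.0, 203 and 204, 60.5 and 62.6, and 216 and 221 CPM. Adamts14 stood at 95.5 and 100.1, 51.4 and 49.1, 101 and 108, and 52.5 and 51.3 CPM. Adamts2 rose 4.77-fold in NF1-MET and 3.54-fold in NF1-MET;sgP53 (adjusted p = 3.78e-33 and 2.25e-21), whereas Adamts14 fell 1.98-fold and 2.02-fold (adjusted p = 2.07e-21 and 3.49e-16). The ratio of Adamts2 to Adamts14 counts went from 0.429 to 0.599 in vehicle to 3.96 to 4.31 in capmatinib. Adamts3, the third of this group, had 1 count in all libraries together.

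The same held for the pair that cuts cartilage oligomeric matrix protein (COMP). Adamts12 stood at 12.3 and 13.9, 128 and 129, 15.5 and 15.9, and 137 and 140 CPM, and Adamts7 at 101 and 102, 26.02 and 24.7, 84.0 and 83.6, and 22.4 and 23.4 CPM. Adamts12 rose 9.65-fold and 8.80-fold (log2 fold changes 3.27 ± 0.045 and 3.14 ± 0.039 SE, adjusted p = 2.36e-33 and 8.34e-25). Adamts7 fell 4.06-fold and 3.66-fold (-2.02 ± 0.041 and -1.87 ± 0.041, adjusted p = 8.31e-29 and 2e-20). Their count ratio, Adamts12 to Adamts7, was 0.122 to 0.191 in vehicle and 4.91 to 6.12 in capmatinib. Comp itself, named for this pair after its values were seen, was low. Its mean level was 0.0664 CPM in NF1-MET vehicle and 0.590 CPM in NF1-MET;sgP53 capmatinib, groups that differ in both line and treatment.

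Adamts6, which acts on the microfibril-rich matrix, stood at 8.24 and 9.03, 27.1 and 30.1, 8.76 and 9.18, and 23.6 and 22.6 CPM, a rise of 3.29-fold and 2.57-fold. Adamts10, a fibrillin-associated relative of Adamts6, stood at 8.62 and 9.88, 11.4 and 13.3, 9.16 and 10.5, and 15.4 and 15.6 CPM. Its rise was smaller, 1.33-fold in NF1-MET and 1.57-fold in NF1-MET;sgP53 (adjusted p = 0.000207 and 4.04e-07). Adamts13, which cuts von Willebrand factor, was at 0 in all 8 libraries.

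The ADAMTS-like genes, whose products bind fibrillin microfibrils in several cases, mostly rose. Adamtsl3 stood at 35.5 and 35.8, 149 and 147, 38.3 and 41.1, and 153 and 151 CPM, and Adamtsl4, a fibrillin-1 partner, at 23.4 and 23.9, 71.0 and 69.6, 25.1 and 28.8, and 77.2 and 78.3 CPM. Adamtsl3 rose 4.11-fold and 3.82-fold and Adamtsl4 rose 2.94-fold and 2.88-fold. Adamtsl1 stayed low, at 0.301 to 0.562 CPM in vehicle and 1.87 to 2.56 CPM in capmatinib (log2 fold changes 2.54 ± 0.29 and 2.13 ± 0.29 SE, adjusted p = 3.54e-09 and 8.38e-07). Adamtsl5 stood at 9.59 and 10.6, 10.9 and 12.4, 11.2 and 10.6, and 10.8 and 9.92 CPM, and its value of 0.20 in NF1-MET (adjusted p = 0.0448) was not called without NF1-MET vehicle replicate 1 (0.13, adjusted p = 0.266) or without NF1-MET capmatinib replicate 2 (0.089, adjusted p = 0.5), nor with library totals (0.0085, adjusted p = 0.943), totals without Gm42418 (0.087, 0.372), the DESeq2 Wald test (0.19, 0.233) or the bias-adjusted test (0.19, 0.0525). Adamtsl2 was at 0.

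Between the lines the differences were small beside those with capmatinib. In vehicle, 6 of the 30 tested members were above and 5 below their NF1-MET level in the NF1-MET;sgP53 line, beside 10.9% and 12.3% of all genes, and none of the 11 differed by more than 0.91 on the log2 scale. In capmatinib, 7 were higher and 5 lower, beside 5.94% and 6.34% of all genes. The 19 members not called in vehicle had log2 values of -0.058 to 0.57 and the 18 in capmatinib of -1.62 to 0.78, a range set by genes with few counts. The median over the members was 0.084 in vehicle and 0.048 in capmatinib, against 0.002 and -0.001 for all genes. With library totals the counts over all genes became 1280 higher and 743 lower in vehicle, from 1580 and 1775, and 537 higher and 129 lower in capmatinib, from 860 and 918; totals without Gm42418 gave 2065 and 1459 in vehicle, and the model of all 8 libraries gave 2051 and 1531 there.

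Adamts5 had the largest called difference between the lines under either treatment other than Mmp10 in vehicle. It was 1.75-fold higher in NF1-MET;sgP53 in vehicle (log2 0.81 ± 0.085 SE, edgeR adjusted p = 4.06e-07) and 1.43-fold higher in capmatinib (0.51 ± 0.031, adjusted p = 4e-09), from the CPM values given above. In vehicle, Mmp16 was 1.46-fold higher (0.54 ± 0.066, adjusted p = 3.12e-06), Adamts2 was 1.44-fold higher (0.52 ± 0.040, adjusted p = 3.8e-09), and Adamts7 was 1.22-fold lower (-0.29 ± 0.031, adjusted p = 4.57e-07). These 4 genes were called in vehicle under every alternative tried. Mmp2 was lower in vehicle (-0.14 ± 0.024, adjusted p = 0.000311) and kept that call in all alternatives but library totals (-0.079, adjusted p = 0.528). The other members called in vehicle were Adamts12 (0.24), Adamtsl3 (0.14) and Timp2 (0.096) on the higher side and Mmp10 (-0.91), Adamts9 (-0.20) and Timp3 (-0.080) on the lower side. Each lost its call without at least 1 library.

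Without NF1-MET vehicle replicate 1, the vehicle difference of Adamts12 was 0.16 (adjusted p = 0.266), that of Adamtsl3 0.13 (0.139), that of Adamts9 -0.21 (0.0893), that of Mmp10 -0.86 (0.156) and that of Timp3 -0.075 (0.0986). Without NF1-MET vehicle replicate 2, Adamtsl3 stood at 0.14 (adjusted p = 0.119), Timp2 at 0.089 (0.0612), Adamts9 at -0.18 (0.146), Mmp10 at -0.96 (0.107) and Timp3 at -0.085 (0.063). Leaving out NF1-MET;sgP53 vehicle replicate 1 ended the calls of Adamts9 (-0.16, adjusted p = 0.19) and Mmp10 (-1.02, adjusted p = 0.06), and leaving out its replicate 2 those of Adamts12 (0.22, 0.103), Adamtsl3 (0.081, 0.371) and Mmp10 (-0.78, 0.168). Timp1 did not pass in vehicle (-0.058 ± 0.027, adjusted p = 0.132) and did without NF1-MET;sgP53 vehicle replicate 1 (-0.088, adjusted p = 0.0128).

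In capmatinib, Adamts4 was 1.19-fold higher in NF1-MET;sgP53 (0.26 ± 0.047, adjusted p = 0.0011), and Adamts4 and Adamts5 were the members called there under every alternative. Adamts6 was 1.25-fold lower (-0.32 ± 0.060, adjusted p = 0.00149) and Adamtsl4 1.11-fold higher (0.15 ± 0.032, adjusted p = 0.00509), and both kept the call without each library in turn, though not with library totals (-0.20, adjusted p = 0.342, and 0.26, adjusted p = 0.101), and Adamtsl4 also lost it under the DESeq2 Wald test (0.15, adjusted p = 0.0915). The remaining calls were Adamts10 (0.32), Adamts9 (0.14), Adamts12 (0.11) and Adamts2 (0.099), higher, and Mmp28 (-0.23), Mmp19 (-0.19), Mmp11 (-0.14) and Mmp2 (-0.080), lower. The 3 tested Timp genes lay within 0.02 of 0 in capmatinib, at -0.016 ± 0.028 for Timp1, -0.015 ± 0.018 for Timp2 and 0.019 ± 0.023 for Timp3 (SE), and were not called.

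Each of those 8 further calls in capmatinib was lost without at least 1 library. Without NF1-MET capmatinib replicate 1 the values were 0.22 for Adamts10 (adjusted p = 0.0955), 0.11 for Adamts12 (0.124), 0.098 for Adamts2 (0.12), 0.15 for Adamts9 (0.067), -0.10 for Mmp11 (0.28), -0.058 for Mmp2 (0.318) and -0.21 for Mmp28 (0.0717). Without NF1-MET capmatinib replicate 2 they were 0.12 for Adamts12 (adjusted p = 0.0993), 0.10 for Adamts2 (0.105), 0.13 for Adamts9 (0.152) and -0.14 for Mmp19 (0.195). Leaving out NF1-MET;sgP53 capmatinib replicate 1 ended the calls of Adamts9 (0.12, adjusted p = 0.143) and Mmp11 (-0.13, 0.141). Leaving out its replicate 2, the library with the lowest Gm42418 share, ended those of Adamts2 (0.082, adjusted p = 0.0693), Adamts9 (0.15, 0.0512), Mmp11 (-0.15, 0.0645), Mmp2 (-0.067, 0.0991) and Mmp28 (-0.21, 0.0828).

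**Figure D5:**
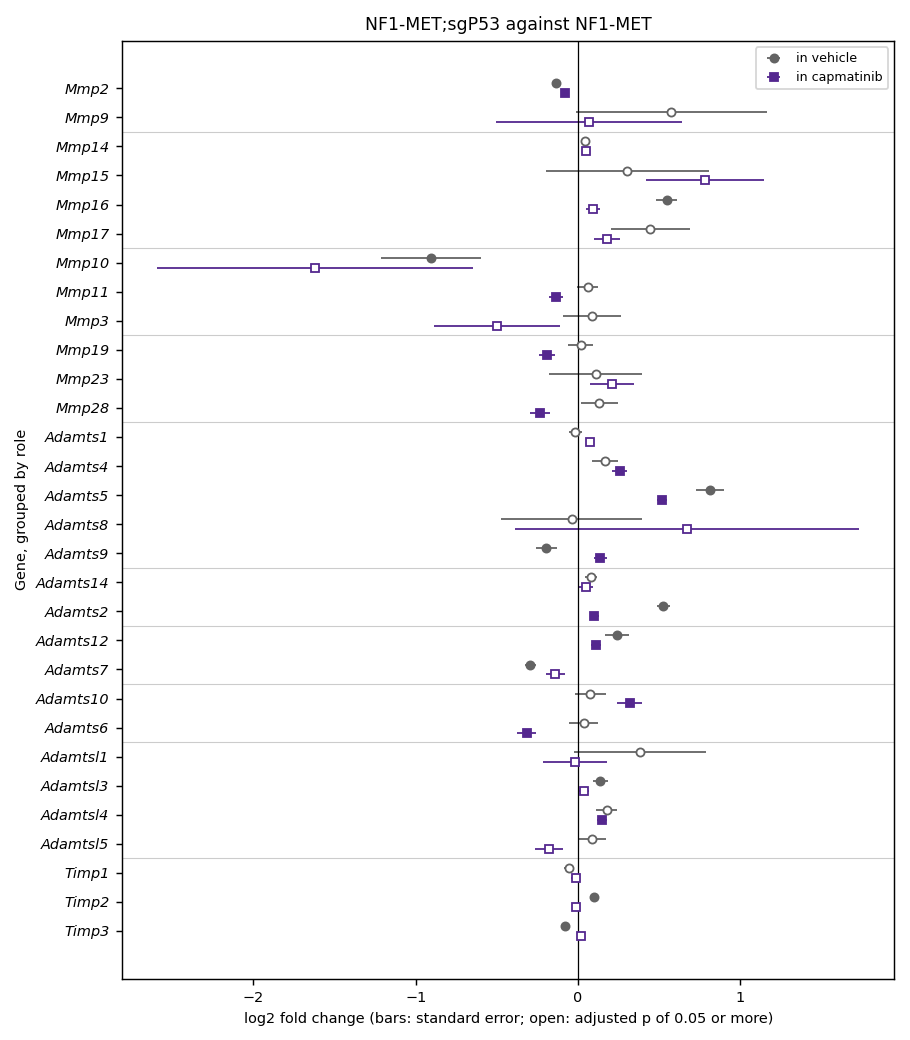
Log2 fold change of the 30 tested members, NF1-MET;sgP53 against NF1-MET, in vehicle (circles) and capmatinib (squares), with bars for the standard error and open symbols for an adjusted p of 0.05 or more. Adamts5 stands to the right in both treatments, at 0.81 and 0.51, and Mmp16 and Adamts2 lie near 0.5 in vehicle and near 0.1 in capmatinib.

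The difference in the capmatinib response itself was tested as an interaction of line and treatment. It was called for 6 of 30 members, 1 higher and 5 lower in NF1-MET;sgP53, beside 3.85% and 5.86% of all genes; over all genes 558 were higher and 849 lower, against 192 and 123 with library totals, 746 and 628 with no count filter, and 713 and 509 without NF1-MET;sgP53 capmatinib replicate 2. Mmp16 had an interaction of -0.47 ± 0.076 (SE, adjusted p = 0.000122) and Adamts2 of -0.44 ± 0.046 (adjusted p = 2.73e-07), both with smaller rises in NF1-MET;sgP53. The rises of Adamts6 (-0.37 ± 0.11, adjusted p = 0.0281), Adamts5 (-0.32 ± 0.069, adjusted p = 0.00309) and Timp2 (-0.13 ± 0.029, adjusted p = 0.00377) were also smaller there, and that of Adamts9 was larger (0.31 ± 0.074, adjusted p = 0.00621). Adamts2 kept its call under every alternative, and Mmp16 and Adamts9 under all but library totals. Adamts6 (-0.29, adjusted p = 0.475), Adamts5 (-0.24, 0.53) and Timp2 (-0.052, 0.94) also lost it with library totals, and Adamts6 under the DESeq2 Wald test (-0.35, adjusted p = 0.134). Adamts6 further lost it without NF1-MET vehicle replicate 1 (-0.31, adjusted p = 0.149), NF1-MET capmatinib replicate 2 (-0.29, 0.16), NF1-MET;sgP53 vehicle replicate 2 (-0.34, 0.12) and NF1-MET;sgP53 capmatinib replicate 2 (-0.31, 0.127). Adamts5 lost it without NF1-MET vehicle replicate 2 (-0.27, adjusted p = 0.0635) and NF1-MET;sgP53 vehicle replicate 2 (-0.26, 0.0549), and Timp2 without NF1-MET;sgP53 capmatinib replicate 2 (-0.096, 0.0785). Without that last library Timp3 was called (0.14, adjusted p = 0.00521), as with no count filter (0.10, adjusted p = 0.0267), against 0.079 ± 0.032 with all libraries (adjusted p = 0.132). The 24 members not called had interactions of -0.74 to 0.69. The response of Timp1 did not pass the test of a difference (0.023 ± 0.040, adjusted p = 0.804).

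Of 9 tested activators, partners and clearance genes, 6 were higher and 3 lower with capmatinib in each line, beside 35.5% higher and 34.7% lower of all genes in NF1-MET and 34.2% and 33.4% in the other line. Reck, a membrane-anchored inhibitor of MMPs, rose from means of 3.31 to 12.6 CPM in NF1-MET and from 5.39 to 14.3 CPM in NF1-MET;sgP53 (log2 fold changes 1.91 and 1.41). Pcolce, an enhancer of procollagen C-proteinase, rose by 0.76 and 0.73 on that scale. Pcolce2, of the same list and named after its values were seen, was lower (-1.41 and -1.29). Its means went from 8.4 to 3.2 CPM in NF1-MET and from 9.5 to 3.9 CPM in NF1-MET;sgP53. On the log2 scale Lrp1, the endocytic receptor that clears proteases and TIMP complexes, rose by 0.63 and 0.40. Cd44, a hyaluronan receptor that docks proteases, fell (-0.91 and -0.83). Furin, which removes the propeptide of membrane-type MMPs and ADAMTS proteases, was lower at -0.22 and -0.13. Of 10 listed ADAM genes, the membrane-bound relatives, 5 were higher and 2 lower in each line, beside the same shares of all genes. The rises were led by Adam12 (1.63 and 1.50), and Adam17, the sheddase of TNF, was at -0.18 and -0.17.

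Most genes of the matrix proteins that these proteases cut or process were higher with capmatinib. Of 14 tested substrate genes, 11 were higher and 2 lower in NF1-MET and 10 were higher and 0 lower in NF1-MET;sgP53 by edgeR (4 did not pass), beside 35.5% and 34.7%, and 34.2% and 33.4%, of all genes, with medians of 1.13 and 0.83. Col1a1, the alpha-1 chain of collagen I, had log2 fold changes of 2.64 and 2.21, Col1a2 of 1.70 and 1.54, Fbn1 (fibrillin-1) of 2.05 and 1.73 and Fn1 (fibronectin) of 1.34 and 1.05. Vcan, the versican substrate of the hyalectanases, was slightly lower with capmatinib in NF1-MET (means of 378 and 360 CPM, log2 fold change -0.087) and slightly higher in NF1-MET;sgP53 (370 and 399 CPM, 0.11). The other hyalectanase substrates, named after their values were seen, were low. Acan and Ncan were at 0, and Bcan reached at most 0.226 CPM as a group mean. In vehicle, 7 of the 14 substrate genes were higher and 4 lower in NF1-MET;sgP53 than in NF1-MET, beside 10.9% and 12.3% of all genes, and in capmatinib 3 were higher and 5 lower, beside 5.94% and 6.34%.

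The transcription factors known to act on Mmp promoters gave 7 higher and 7 lower of 15 in each line, an even split like that of all genes (35.5% and 34.7%, and 34.2% and 33.4%). Among AP-1 genes, Fos rose from means of 2.51 to 42.0 CPM in NF1-MET and from 3.03 to 35.6 CPM in NF1-MET;sgP53 (log2 fold changes 4.05 and 3.56), Junb rose by 1.30 and 1.22 on that scale and Fosl2 by 0.81 and 0.87. Fosl1, another AP-1 member, fell (-1.81 and -1.71). The other AP-1 genes of the list were added after their values were seen, to complete the set: Jund rose (0.52 and 0.47), and Fosb (-1.14 and -0.90) and Jun (-0.39 and -0.57) fell, so that AP-1 genes gave 4 higher and 3 lower in each line. Among the ETS genes that respond to ERK signaling, Etv4 fell (-2.004 and -2.20), as did Etv5 (-1.44 and -1.52). The other ETS genes of the list, also added after their values were seen, were Etv1 (-1.12 and -0.63) and Ets1 (-0.18 and -0.25), which fell, and Ets2 (0.55 and 0.49), which rose. Between the lines, 0 of the 15 regulators were higher and 8 lower in NF1-MET;sgP53 in vehicle by edgeR, and 1 was higher and 7 lower in capmatinib, beside 10.9% and 12.3% of all genes in vehicle and 5.94% and 6.34% in capmatinib, with Etv4 at -0.29 and -0.48 and Fosb at -0.53 and -0.28. The lists of partners, substrates and regulators were drawn up with earlier results of these data known.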

How the data were processed

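Poly(A) RNA of 8 cultures was sequenced from KAPA mRNA HyperPrep libraries. The authors deposited whole-number read counts per gene, made with STAR 2.5.2b on mm10 after bcl2fastq 1.9.0, Trim Galore 0.4.2 and FastQC 0.11.7, as named in the submitters' processing notes and methods. The strand setting and annotation release are not given in the sources used here. Samples were grouped by line and treatment from their labels.

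Genes with 10 counts or more in 2 or more libraries, and counts above 0 in 2 or more libraries of the comparison, were tested on the deposited counts with edgeR 4.0.16 (quasi-likelihood F-test, TMM scaling within the comparison, R 4.3.3). The p-values were adjusted by Benjamini-Hochberg over all genes tested, with a threshold of 0.05, and each standard error is the log2 fold change over the root of F. The treatment comparisons and the line comparisons used their own 4 libraries, and the interaction used all 8. Levels are CPM scaled by TMM over 8 libraries, and per kb by annotated transcript length. The script was tested on simulated counts.

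Every member past the filter could be named. Each library's value is given for members with a group mean of 5 CPM or more, those called in the interaction and the Timp genes. From the other lists, the largest called changes at 10 CPM or more and the most abundant genes could be named. The members and lists were chosen with earlier results of these data known. Intervals and the floor of 3 counts cover counting error only. Alternatives were DESeq2 size factors, library totals with and without Gm42418, the DESeq2 1.42.0 Wald test, the bias-adjusted quasi-likelihood test, no filter, a stricter filter, a replicate block, all 8 libraries in 1 model and each library left out. Upstream sequences are RefSeq windows of GRCm38.p6, found for 36 members. Results for 2 genes are not reported here.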

Additional observations from a re-analysis of the deposited data

Results flagged for a closer look

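The change with capmatinib was called different between the lines for 6 members by the edgeR interaction test. Values are on the log2 scale (NF1-MET;sgP53 minus NF1-MET), and these are the results given here. The rise was smaller in NF1-MET;sgP53 for Mmp16 (-0.4726), Adamts2 (-0.4446), Adamts6 (-0.3713), Adamts5 (-0.3168) and Timp2 (-0.131). It was larger for Adamts9 (0.3133). With library totals, Adamts2 kept its call and Mmp16, Adamts6, Adamts5, Timp2 and Adamts9 lost theirs. Adamts6 also lost its call under the DESeq2 Wald test. In each of these genes both lines rose, so the difference is one of size. Groups of 2 libraries were too small to look for single libraries far from the rest.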

How the results depend on the processing

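The members' counts in the capmatinib comparisons stayed within 1.5 times their values under every alternative, while those between lines did not. With library totals, 1 member instead of 5 was lower in NF1-MET;sgP53 in vehicle, 3 instead of 7 were higher and 0 instead of 5 lower in capmatinib, and the interaction gave 0 higher and 1 lower instead of 1 and 5. Totals without Gm42418 gave 3 lower in capmatinib. The DESeq2 Wald test gave 3 lower in vehicle, 2 higher and 1 lower in capmatinib. The model of all 8 libraries gave 3 lower in vehicle. With no filter, 3 were higher and 1 lower in capmatinib and 2 higher in the interaction. The causes were not tested.

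Leaving out each library gave 2 to 4 members lower in vehicle, 3 to 6 higher and 2 to 4 lower in capmatinib, and 1 to 2 higher and 3 to 6 lower in the interaction. A lone library was assumed to vary like the other groups.

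Of 1252 values of single genes, which between lines cover the called members and the Timp genes, 1134 kept direction and side of the threshold, 105 lost the call, 4 gained it and 9 turned in sign, none of them called at the turned value (Mmp2 in capmatinib was called with TMM). Mmp9 ran from -0.2455 to 1.314 in NF1-MET (-0.139 without capmatinib replicate 1) and from -0.4385 to 0.1331 in NF1-MET;sgP53 with single libraries left out. In capmatinib, library totals turned the line difference of Mmp2 to 0.03492, of Timp1 to 0.09963 and of Timp2 to 0.1008, and Timp3 ran from -0.01247 to 0.04904 with single libraries left out. The interaction of Timp1 ran from -0.01393 to 0.05932 with single libraries left out and reached 0.101 over all alternatives.

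With the replicate block, members were 22 higher and 6 lower with capmatinib in each line, 7 and 6 between lines in vehicle, 7 and 4 in capmatinib, and 1 and 6 in the interaction. Among the called members and Timp genes, Timp1 in vehicle gained a call (adjusted p = 0.0333) and Mmp11 in capmatinib lost one (adjusted p = 0.0523). Deviations of same-numbered libraries correlated at -0.0615 to 0.184 over 6 pairs, so the numbers were not taken as pairing.

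Over all genes, the Wald test called 833 higher and 1100 lower between lines in vehicle (1580 and 1775 by edgeR), 436 and 434 in capmatinib (860 and 918) and 433 and 461 in the interaction (558 and 849), and no filter gave 515 and 555 in capmatinib. Library totals gave 3260 genes higher with capmatinib in NF1-MET;sgP53 (4963 with TMM), 1280 and 743 between lines in vehicle, 537 and 129 in capmatinib and 192 and 123 in the interaction, where leaving out NF1-MET;sgP53 capmatinib replicate 2 gave 713 and 509. Genes with few counts, such as Mmp9, Mmp10, Mmp15 and Adamts8, had wide standard errors.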
